A study of Mus musculus with 12 samples.

Results

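The 10 genes described here are the DNA-binding factors of the canonical Wnt pathway and a set of genes tied to it. They are the TCF/LEF factors *Tcf7*, *Tcf7l1*, *Tcf7l2* and *Lef1*, the coactivator gene *Ctnnb1* and the feedback genes *Axin2* and *Nkd1*. The rest are the secreted inhibitors *Wif1* and *Sfrp1* and the Dickkopf family gene *Dkk3*. They were chosen by name out of the 55471 genes of the count table, with no threshold on their values. The choice was made with earlier results of these data known, among them the rise of *Tcf7l2* that the authors report. All 10 passed the filter on low counts, as did 19578 genes in total. RNA-seq was performed on wild-type primary hippocampal neurons, prepared from late-gestation embryos of CD1 mice and grown in Neurobasal medium with B27. Both groups received an antisense LNA gapmer, a short modified oligonucleotide that directs RNase H to its target RNA, at DIV 7 (days in vitro), and RNA was collected at DIV 10. The gapmers, packaged in lipid nanoparticles, were a negative control sequence in 6 libraries and one directed against the lncRNA *Neuid* in 6 libraries (*Neuid* KD). None of the sources states that the libraries of a group came from separate cultures, so the p-values measure only the spread between these libraries, which may be technical.

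Wnt ligands bind Frizzled receptors together with the co-receptors Lrp5 and Lrp6. Without ligand, a destruction complex built on Axin and *Apc* marks beta-catenin for degradation. With ligand, beta-catenin accumulates, enters the nucleus and binds TCF/LEF factors at their target genes, where it displaces corepressors of the Groucho/TLE family. *Tcf7l1* is known mostly as a repressor, whereas *Lef1* and *Tcf7* act more often as activators and *Tcf7l2* can do either. In the brain, the pathway is known for its part in hippocampal development, synapse formation and the timing of glial differentiation.

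Control libraries held 18002585 to 30914714 counted reads and *Neuid* KD libraries 11152556 to 30573480. The targeted RNA, *Neuid* (*Gm10419*), had a mean of 28.4 ± 2.03 CPM (SD, n = 6) with the control gapmer and of 8.05 ± 1.13 CPM (SD, n = 6) with its own gapmer, where CPM are read counts scaled to the size of each library by TMM. The libraries also differed in background, measured as the summed CPM of 2014 chemosensory receptor genes, which ranged from 26.7 to 667 CPM. By a limit of 100 CPM, 4 control and 3 *Neuid* KD libraries had high background and 2 control and 3 *Neuid* KD libraries had low background.

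Of the 10 genes, 3 rose upon *Neuid* KD at an adjusted p under 0.05 (edgeR quasi-likelihood test, Benjamini-Hochberg over all tested genes): *Tcf7l1*, *Tcf7l2* and *Nkd1*. Over all tested genes, 1235 rose, which is 6.31%, and 473 fell, which is 2.42%. The rise of *Tcf7l2* was known when the genes were chosen, so the 3 of 10 are no test against the share of all genes. With upper-quartile scaling in place of TMM, the numbers over all genes were 1049 and 1259, so that 45.5% of called genes were higher, against 72.3% with TMM, while the same 3 genes and *Ctnnb1* were called higher. None of the 10 fell, with 0 lower at an unadjusted p under 0.05 and 0 by DESeq2, which called 4 higher. *Tcf7l1* and *Tcf7l2* were also past a log2 fold change of 0.5, as were 2.44% of all tested genes in this direction and 0.792% below -0.5. In 3 of the 10 genes every *Neuid* KD library lay above every control library, a pattern held by 4.13% of all tested genes, and in 0 every *Neuid* KD library lay below, against 1.57% of all. The median log2 fold change was 0.20 over the 10 genes and -0.03 over all tested genes.

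Among the TCF/LEF factors, *Tcf7l1* and *Tcf7l2* rose upon *Neuid* KD, whereas *Lef1* and *Tcf7* did not pass the test. *Tcf7l1*, the family member best known for repressing Wnt targets in stem and progenitor cells, lies at chr6:72626378-72789254 on the minus strand (GRCm38, the assembly also called mm10). The lowest, median and highest control libraries had 2.68, 3.56 and 5.32 CPM, and the lowest, median and highest *Neuid* KD libraries had 7.16, 8.16 and 11.6 CPM. The groups therefore did not overlap, and the highest control library was the one with the most background. Mean *Tcf7l1* increased from 3.64 ± 0.958 to 8.59 ± 1.64 CPM (SD, n = 6 each), a 2.37-fold change with a 95% confidence interval of 1.87 to 3.00. On the log2 scale this was 1.24 with a standard error of 0.162 and an adjusted p of 4.1e-05 (edgeR). The difference was present at both levels of background, with means of 4.09 and 9.22 CPM in control and *Neuid* KD libraries of high background and of 2.73 and 7.95 CPM in those of low background. Between 58 and 259 reads per library stood behind these values. *Gm15401*, *Gm15402* and *Gm38320* overlap the gene on the opposite strand, and *Gm37736*, *Gm37969* and *Gm38114* on the same strand, and the strand setting of the read counting is not given in the sources used here, so that reads of these genes may be included.

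*Tcf7l2*, a factor known for its roles in oligodendrocyte maturation and in thalamic neurons, lies at chr19:55741820-55933654 on the plus strand. Its lowest, median and highest libraries were at 4.57, 5.33 and 6.66 CPM in control and at 8.34, 9.88 and 11.7 CPM upon *Neuid* KD. No *Neuid* KD library fell into the control range, and the lowest *Neuid* KD library was the one with the highest background in that group. The fold change was 1.81 (95% confidence interval 1.54 to 2.13) with an adjusted p of 3.81e-05 (edgeR). Within the libraries of low background the means were 4.64 CPM in control and 9.57 CPM upon *Neuid* KD, and within those of high background 5.93 and 10.2 CPM. Counts are per gene, so the many transcripts of *Tcf7l2*, which differ in their start and in the exons they hold, were not separated. *Ppnr* overlaps *Tcf7l2* on the same strand.

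*Lef1*, a lymphoid enhancer-binding factor and itself a Wnt target in many cells, lies at chr3:131110471-131224356 on the plus strand. Control libraries ranged from 2.97 to 6.45 CPM with a median of 3.92, and *Neuid* KD libraries from 3.88 to 7.41 CPM with a median of 4.50, so the groups overlapped over most of their range. The log2 fold change of 0.24 had a 95% confidence interval of -0.19 to 0.67 (adjusted p = 0.643, edgeR). A rise of the size seen for *Tcf7l1* or *Tcf7l2* lies outside this interval. A rise up to 0.67 or a fall down to -0.19 lies inside it.

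*Tcf7*, which is known best from T cell development, lies at chr11:52252371-52283014 on the minus strand. Its mean was 2.37 ± 0.476 CPM with the control gapmer and 1.94 ± 0.767 CPM upon *Neuid* KD (SD, n = 6 each), with 26 to 77 reads per library. The control range of 1.81 to 3.10 CPM lay largely within the *Neuid* KD range of 1.11 to 2.99 CPM. Its log2 fold change was -0.28 (95% confidence interval -0.84 to 0.28, adjusted p = 0.694, edgeR).

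**Figure D1:**
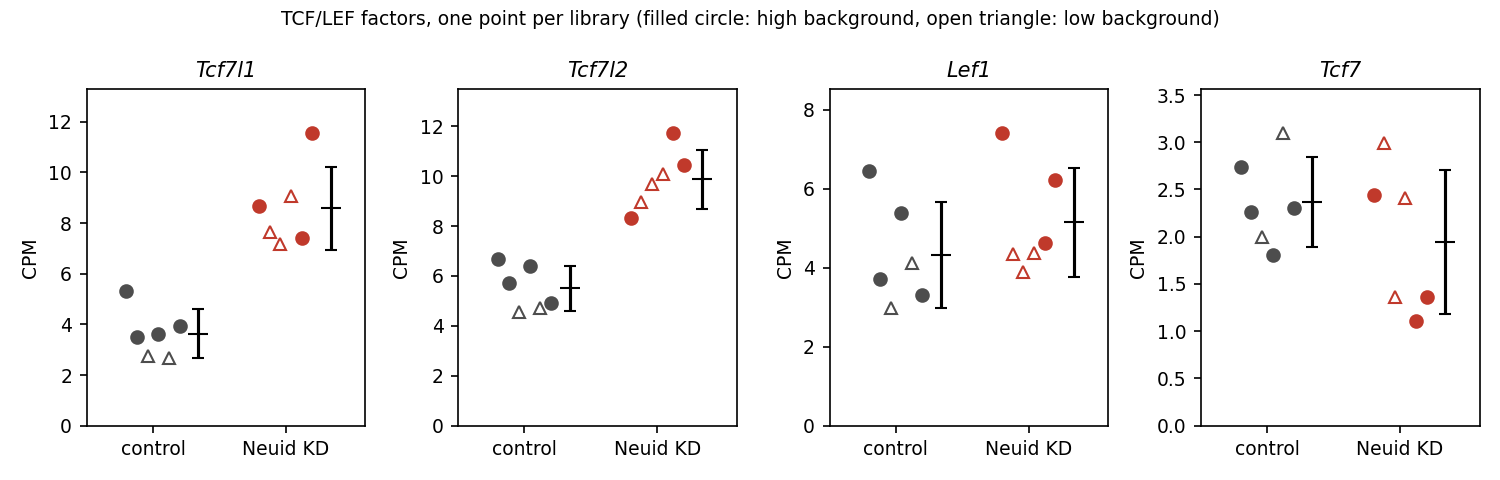
Level of the 4 TCF/LEF factors in each library, in CPM, for control and *Neuid* KD (6 points per group, circles for high and triangles for low background, with the mean and SD). *Tcf7l1* and *Tcf7l2* show no overlap between the groups, with highest control libraries at 5.32 and 6.66 CPM and lowest *Neuid* KD libraries at 7.16 and 8.34 CPM, while the groups of *Lef1* and *Tcf7* overlap.

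To compare genes with each other, levels were divided by the joined length of all annotated exons of a gene. This need not be the length of the transcripts present. On this scale, the 4 factors stood close together in control libraries. *Tcf7l1* was at 0.927, *Tcf7* at 0.903, *Tcf7l2* at 0.627 and *Lef1* at 0.492 CPM per kb, and each overlapped its neighbour in this order. Upon *Neuid* KD, *Tcf7l1* was at 2.19 CPM per kb and lay apart from *Tcf7l2* at 1.13, which in turn overlapped *Tcf7* at 0.741. Of the sum of the 4 factors per kb, *Tcf7l1* made up 31.2% ± 4.19 in control and 46.9% ± 4.30 in *Neuid* KD libraries (SD, n = 6 each). The share of *Tcf7* was 30.95% ± 6.04 in control and 15.9% ± 5.92 in *Neuid* KD libraries, that of *Tcf7l2* 21.4% ± 2.34 and 24.6% ± 4.70, and that of *Lef1* 16.5% ± 2.83 and 12.5% ± 2.497. The sum itself was 2.95 ± 0.512 CPM per kb in control and 4.64 ± 0.539 CPM per kb upon *Neuid* KD. These shares are descriptions of the same counts and were not tested. The shares and the order depend on the exon length used, which was 8775 bases for *Tcf7l2* and 3924 bases for *Tcf7l1*. In CPM, mean *Tcf7l2* was above mean *Tcf7l1* in control (5.50 and 3.64 CPM) and upon *Neuid* KD (9.87 and 8.59 CPM).

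To show the sequence around the annotated starts of the TCF/LEF genes that rose, windows of *Tcf7l1* and *Tcf7l2* are printed here from RefSeq (GRCm38.p6, 250 bases before to 50 after the start, read along the gene's strand), with CpG dinucleotides in capitals. The *Tcf7l1* window is chr6:72788996-72789295 (minus strand), with a RefSeq start 209 bases inside the gene as given above, and that of the upstream *Tcf7l2* start is chr19:55741560-55741859 (plus strand), with a start 10 bases before it.
*Tcf7l1*: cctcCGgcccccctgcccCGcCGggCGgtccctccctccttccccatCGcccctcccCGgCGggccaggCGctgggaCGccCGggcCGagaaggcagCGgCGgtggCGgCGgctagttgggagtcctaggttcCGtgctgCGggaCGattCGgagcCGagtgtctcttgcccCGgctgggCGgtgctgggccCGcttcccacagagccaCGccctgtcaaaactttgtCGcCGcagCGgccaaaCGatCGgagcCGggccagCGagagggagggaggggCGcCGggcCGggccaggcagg
*Tcf7l2*: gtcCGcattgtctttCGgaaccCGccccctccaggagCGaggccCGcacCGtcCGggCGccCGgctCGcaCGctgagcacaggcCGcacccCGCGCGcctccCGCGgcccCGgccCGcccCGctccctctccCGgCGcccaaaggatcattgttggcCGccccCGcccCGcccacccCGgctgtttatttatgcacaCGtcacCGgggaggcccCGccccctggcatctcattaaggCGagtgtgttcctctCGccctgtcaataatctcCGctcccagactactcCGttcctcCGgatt
The windows of *Tcf7l1* and *Tcf7l2* each hold 34 CpG dinucleotides at a GC content of 75.3% and 70.0%, and the median GC content of all 32851 promoters in the table was 52.7%. The ratio of observed to expected CpG was 0.799 and 1.01 in this order, against a median of 0.384 over all promoters. A further RefSeq start of *Tcf7l2* lies 153.5 kb downstream and has 7 CpG dinucleotides in a window of 42.0% GC. The RefSeq start of *Nkd1* in the table lies 6279 bases inside the gene, and its window is not shown. Which starts were used was not measured in these libraries. For 8 of the 10 genes the table held a promoter, 14 windows in all, and *Sfrp1* and *Dkk3* had no entry. The sequence CTTTGAT, a form of the TCF/LEF motif, was searched on both strands (ATCAAAG on the other). It was in 0 of these 14 windows and in 3.73% of all promoters. At so low a share, 14 windows can easily hold none, so no conclusion is drawn from the 0. The windows of *Ctnnb1*, and some of those of *Lef1*, overlap each other. Starts of *Ctnnb1* and *Lef1* also lie inside the gene, by 4184 bases or more for *Ctnnb1* and by up to 45823 bases for *Lef1*. Other forms of the motif were not searched.

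*Ctnnb1*, which encodes beta-catenin, was the most abundant of the 10 genes per kb and did not pass the test. It lies at chr9:120929216-120960507 on the plus strand, and its level per kb was 87.2 in control and 99.1 CPM per kb upon *Neuid* KD. Control libraries ranged from 402 to 493 CPM and *Neuid* KD libraries from 467 to 541 CPM. The groups overlapped over all libraries, but not within either level of background. At high background, 4 control libraries were at 402 to 457 CPM and 3 *Neuid* KD libraries at 467 to 515 CPM. At low background, only 2 control libraries, at 487 to 493 CPM, stood against 3 *Neuid* KD libraries at 533 to 541 CPM. The log2 fold change was 0.18 (95% confidence interval 0.06 to 0.30, adjusted p = 0.053, edgeR). With the background as a covariate the log2 fold change was 0.17 and the adjusted p 0.0018 (edgeR). That setting called 1776 of all tested genes higher, against 1235 in the reported fit. *Ctnnb1* was called higher under 7 of the 23 alternatives. Whether the RNA change reached the beta-catenin protein was not measured in these libraries.

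Of the feedback genes, *Nkd1* rose and *Axin2* did not pass the test. *Nkd1*, which binds Dishevelled and dampens Wnt signalling, lies at chr8:88521354-88594884 on the plus strand. Its lowest, median and highest libraries were at 9.22, 11.0 and 12.2 CPM in control and at 14.0, 14.9 and 16.6 CPM upon *Neuid* KD. The lowest *Neuid* KD library was thus above the highest control library, and the spread within each group was narrow, with means of 10.8 ± 1.00 and 15.0 ± 0.869 CPM (SD, n = 6 each). The 1.39-fold change (95% confidence interval 1.26 to 1.54) had an adjusted p of 0.000135 (edgeR). This call was lost with GC and length offsets, where the log2 fold change was 0.52 and the adjusted p 0.296. *Gm45496* overlaps *Nkd1* on the same strand, and other annotated genes also overlap *Tcf7*, *Lef1*, *Ctnnb1* and *Axin2*.

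*Axin2*, a scaffold of the destruction complex and the most widely used readout of canonical Wnt signalling, lies at chr11:108920349-108950783 on the plus strand. It was at 41.8 ± 3.68 CPM in control and 46.0 ± 2.13 CPM upon *Neuid* KD (SD, n = 6 each), with overlapping ranges of 38.3 to 47.4 and 43.7 to 48.7 CPM. The log2 fold change was 0.14 with a 95% confidence interval of 0.02 to 0.26 and an adjusted p of 0.19 (edgeR). It was not called under any of the 23 alternatives, where its adjusted p was between 0.0643 and 1.00.

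The secreted inhibitors *Sfrp1* and *Wif1* and the Dickkopf family gene *Dkk3* did not pass the test. *Sfrp1*, a decoy that binds Wnt ligands through a Frizzled-like domain, lies at chr8:23411502-23449632 on the plus strand and was at 19.2 ± 1.32 CPM in control and 17.8 ± 2.02 CPM upon *Neuid* KD (SD, n = 6 each). Its log2 fold change of -0.10 had a 95% confidence interval of -0.26 to 0.06 (adjusted p = 0.576, edgeR). *Dkk3*, a divergent Dickkopf protein found in many neurons, lies at chr7:112116017-112159057 on the minus strand and was at 16.4 ± 1.92 and 19.1 ± 2.03 CPM, with a log2 fold change of 0.22 (95% confidence interval 0.04 to 0.40, adjusted p = 0.131, edgeR). The control and *Neuid* KD libraries of both genes overlapped.

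*Wif1*, which binds Wnt ligands outside the cell, lies at chr10:121033960-121100650 on the plus strand and was near the limit of detection, with 3 to 28 reads per library. It was at 0.804 ± 0.432 CPM in control and 0.523 ± 0.413 CPM upon *Neuid* KD (SD, n = 6 each). The interval of its log2 fold change, -1.88 to 0.60, was the widest of the 10 genes, and a rise of the size seen for *Tcf7l1* or *Tcf7l2* lies outside it, while a fall or a smaller rise lies inside it (log2 fold change -0.64, adjusted p = 0.685, edgeR). Its level moved with the background: libraries of high background ranged from 0.471 to 1.34 CPM and those of low background from 0.140 to 0.509 CPM. The part of background reads in the values of *Wif1* was not tested. *Lef1* ranged from 3.30 to 7.41 CPM in libraries of high background and from 2.97 to 4.37 CPM in those of low background.

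**Figure D2:**
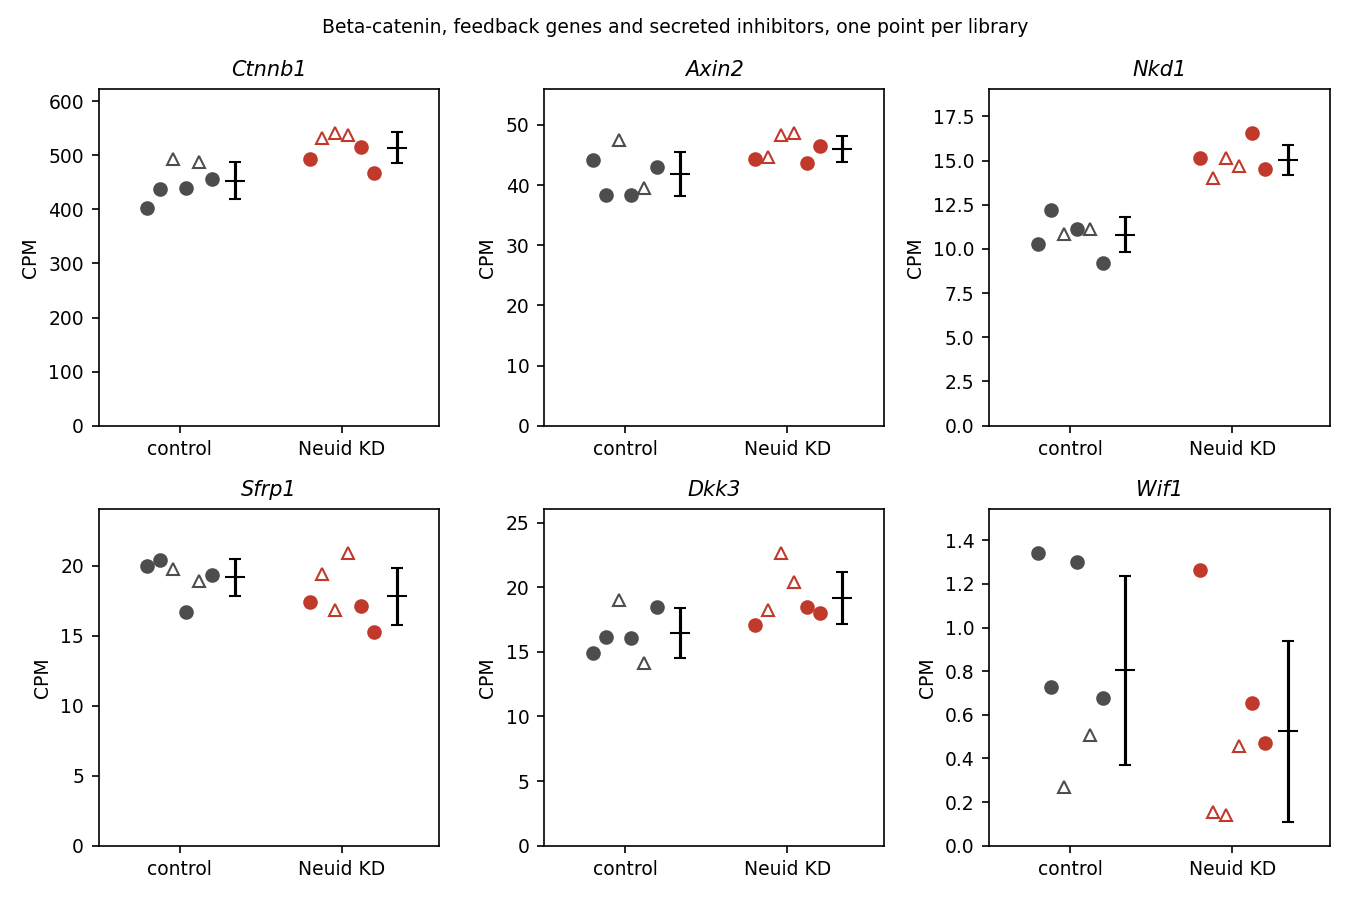
Level of *Ctnnb1*, *Axin2*, *Nkd1*, *Wif1*, *Sfrp1* and *Dkk3* in each library, in CPM, for control and *Neuid* KD (6 points per group, circles for high and triangles for low background, with the mean and SD). *Nkd1* is separated, with control libraries up to 12.2 CPM and *Neuid* KD libraries from 14.0 CPM, and the groups of the other genes overlap.

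**Figure D3:**
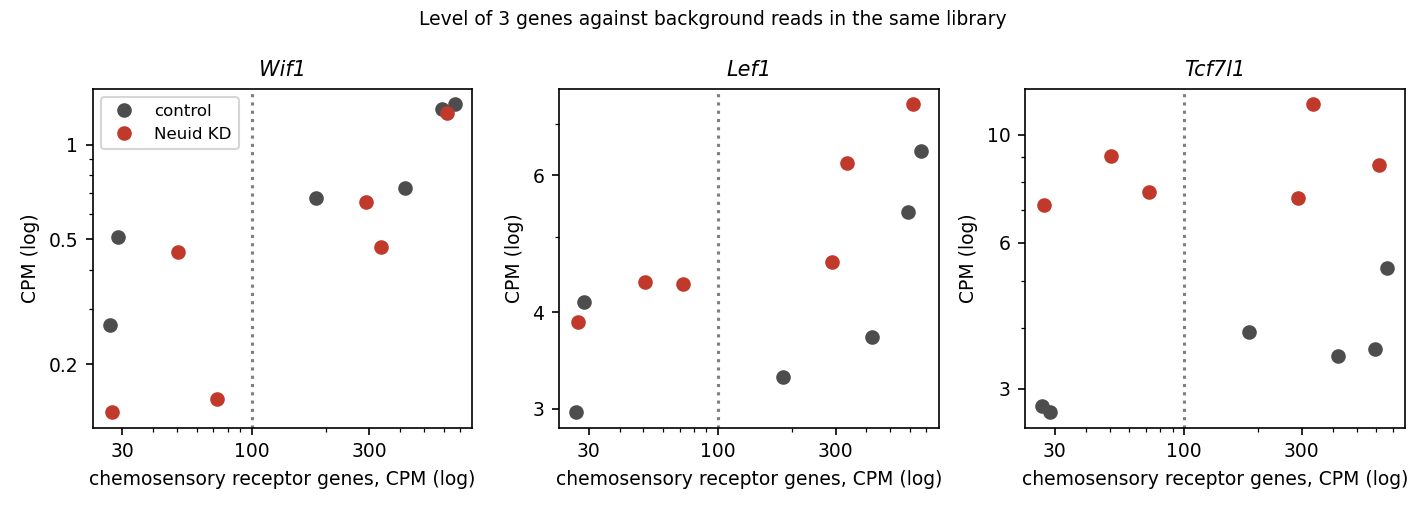
CPM of *Wif1*, *Lef1* and *Tcf7l1* against the summed CPM of chemosensory receptor genes in the same library, both on log axes, with the limit of 100 CPM as a dotted line (12 libraries). *Wif1* is higher in libraries with more background in both groups, whereas the *Tcf7l1* points of *Neuid* KD libraries, from 7.16 CPM, lie above those of control libraries, up to 5.32 CPM, on both sides of the limit.

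Per kb, the order of the other genes was the same in both groups. *Ctnnb1* was followed by *Axin2* at 7.59 CPM per kb in control and 8.36 upon *Neuid* KD, and then by *Dkk3* at 4.90 and 5.70 and *Sfrp1* at 4.38 and 4.07. *Dkk3* and *Sfrp1* overlapped in control libraries and lay apart upon *Neuid* KD, whereas *Sfrp1* and *Nkd1* lay apart in control (4.38 and 2.37 CPM per kb) and overlapped upon *Neuid* KD (4.07 and 3.30 CPM per kb). *Wif1* was lowest in both, at 0.331 and 0.216 CPM per kb, and overlapped *Lef1*.

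The wider pathway was read from 8 lists of Wnt genes, which hold 97 genes beside the 10. Of these, 80 were tested, 7 rose, 1 fell and 72 did not pass the test, with a median log2 fold change of 0.05. These 7 of 80 stand beside 6.31% higher among all tested genes, and the 1 of 80 beside 2.42% lower. Among 19 ligands, 11 were tested and 1 rose, *Wnt5a*, which signals mostly through beta-catenin-independent routes. It was named after its values were seen, and increased from 16.7 ± 1.26 to 23.1 ± 2.09 CPM (SD, n = 6 each, log2 fold change 0.47, adjusted p = 0.00013, edgeR).

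Of the 16 receptors and co-receptors, all were tested and 2 rose. *Fzd9*, a Frizzled receptor expressed in the hippocampus, increased from 17.2 ± 2.10 to 27.0 ± 1.80 CPM (SD, n = 6 each), a log2 fold change of 0.64 with an adjusted p of 1.08e-05 (edgeR). *Lrp5*, a co-receptor of the canonical branch, increased from 16.0 ± 1.79 to 23.8 ± 1.69 CPM (log2 fold change 0.56, adjusted p = 5.06e-05, edgeR), and in neither gene did the groups overlap. Its paralogue *Lrp6* had means of 77.8 ± 4.03 and 87.9 ± 7.02 CPM and did not pass the test (log2 fold change 0.18, adjusted p = 0.0667, edgeR). The median log2 fold change over the receptors was 0.17.

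Among 15 secreted antagonists, 11 were tested and 2 rose, and the median was -0.10. Both were named after their values were seen. *Frzb*, a secreted Frizzled-related protein, had means of 6.39 ± 0.907 and 9.03 ± 0.427 CPM (SD, n = 6 each, log2 fold change 0.49, adjusted p = 0.00139, edgeR), and *Draxin*, an axon guidance protein that can also inhibit Wnt signalling, had means of 25.7 ± 4.01 and 34.9 ± 3.60 CPM (log2 fold change 0.44, adjusted p = 0.0047, edgeR). The call of *Frzb* was lost in the libraries of low background, with an adjusted p of 0.145. In the R-spondin axis, 0 of 8 tested genes passed the test in either direction, with 2 higher at an unadjusted p under 0.05 and 1 higher by DESeq2, and of the secretion genes *Porcn* and *Wls* 0 passed, with 1 higher at an unadjusted p under 0.05 and 0 by DESeq2 (main test edgeR).

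In the destruction complex and Dishevelled list, 1 of 17 tested genes rose, which was *Nkd1*, and the median log2 fold change was 0.07. Of 18 nuclear factors and cofactors, 3 rose and 1 fell, with a median of 0.06. Besides *Tcf7l1* and *Tcf7l2*, these were the corepressor genes *Tle4* and *Tle2*, named after their values were seen. *Tle2* fell from 15.7 ± 0.547 to 12.9 ± 1.04 CPM (SD, n = 6 each, log2 fold change -0.29, adjusted p = 0.00489, edgeR). Its call was lost under 4 of 23 alternatives, among them the libraries of high background (adjusted p = 0.426) and those of low background (adjusted p = 0.0533) taken alone. *Tle4* increased from 47.1 ± 3.05 to 53.7 ± 2.41 CPM (log2 fold change 0.19, adjusted p = 0.0277, edgeR), a call that was lost under 13 of 23 alternatives, 10 of which left out 1 library (adjusted p up to 0.189).

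Of 20 commonly used Wnt target genes, 15 were tested and 2 rose, *Nkd1* and *Tnfrsf19*, and the median log2 fold change was 0.06. *Tnfrsf19*, a receptor of the TNF family also known as Troy, increased from 82.6 ± 5.96 to 135 ± 7.86 CPM (SD, n = 6 each, log2 fold change 0.71, adjusted p = 1.1e-07, edgeR). Other target genes gave log2 fold changes on both sides of 0 without passing the test. *Ccnd1*, which drives entry into the cell cycle, was at -0.14, *Myc* at -0.05 and the stem cell receptor gene *Lgr5* at -0.30, whereas the Wnt inhibitor genes *Apcdd1* and *Znrf3* were at 0.13 and 0.20. The calls of *Wnt5a*, *Frzb*, *Draxin*, *Tle2*, *Tle4* and *Tnfrsf19* were lost with GC and length offsets, where their log2 fold changes were 0.49, 0.54, 0.46, -0.27, 0.22 and 0.76 in this order, and those of *Fzd9* and *Lrp5* were held under all 23 alternatives.

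**Figure D4:**
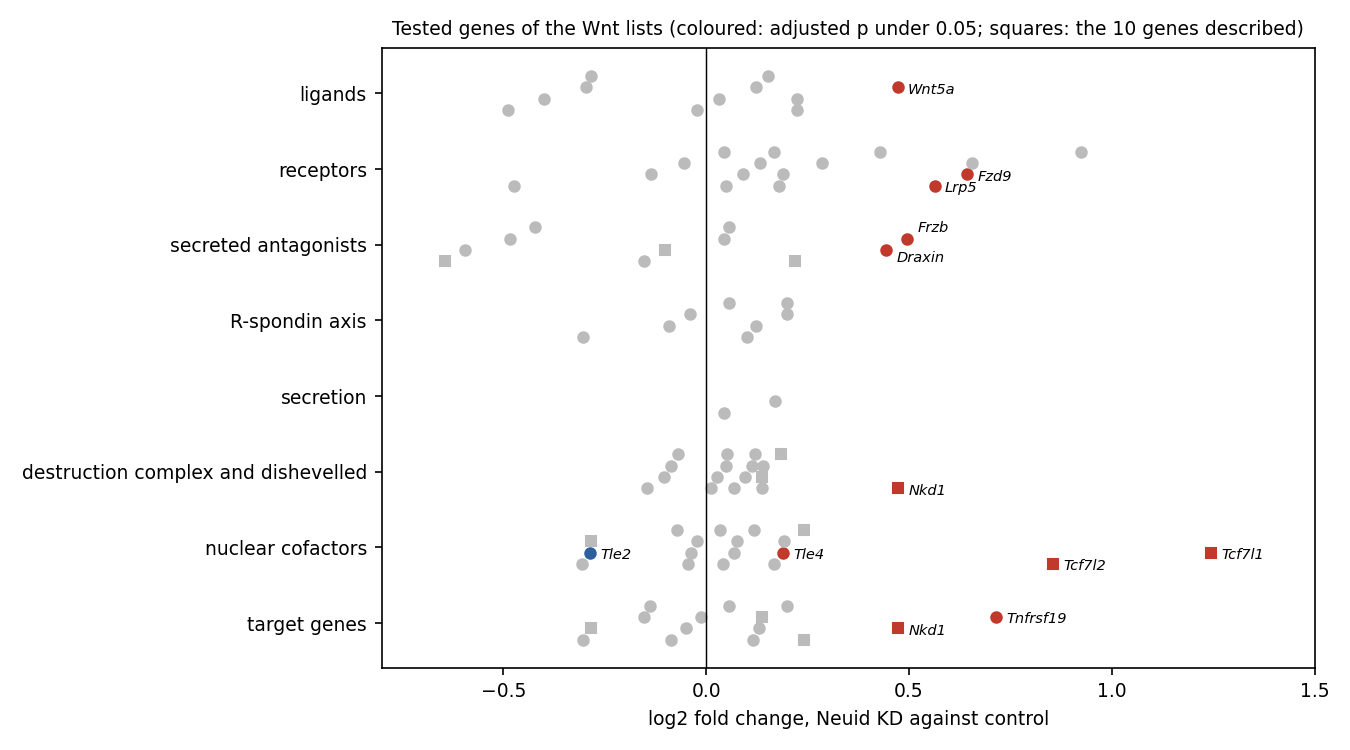
Log2 fold change (*Neuid* KD over control) of each tested gene in the 8 Wnt pathway lists, with 1 point per gene, genes past the test in colour and the 10 genes as squares. The list medians lie between -0.10 and 0.17, and the called genes that rose furthest are *Tcf7l1* at 1.24, *Tcf7l2* at 0.86, *Tnfrsf19* at 0.71 and *Fzd9* at 0.64.

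Markers of the cell types that such cultures can hold were read beside these genes. The summed level of 12 astrocyte markers ranged from 1723 to 2198 CPM in control and from 3460 to 4153 CPM in *Neuid* KD libraries, with 10 of 11 tested markers higher, among them *Slc1a2* and *Slc1a3*, the glutamate transporters of astrocytes. *Slc1a3* had means of 343 ± 37.6 and 817 ± 40.2 CPM, and *Slc1a2* of 1185 ± 100.02 and 1834 ± 212 CPM (SD, n = 6 each). The astrocyte sum therefore moved in the same direction as *Tcf7l1*, *Tcf7l2* and *Nkd1* and did not overlap between the groups either. In bulk libraries, a different number of cells of a type and a different amount of RNA per cell cannot be told apart, and the part of astrocyte RNA in the values of the 10 genes was not tested.

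The sum of 9 markers of oligodendrocyte precursors ranged from 104 to 122 CPM in control and from 255 to 301 CPM in *Neuid* KD libraries, with 3 of 9 higher (*Olig1*, *Olig2* and, named after its values were seen, *Lhfpl3*). The transcription factor genes *Olig1* (78.2 ± 8.49 and 216 ± 11.7 CPM) and *Olig2* (10.5 ± 1.33 and 33.6 ± 1.93 CPM, SD, n = 6 each) made up most of it. *Lhfpl3* had overlapping groups (4.14 ± 1.21 and 6.04 ± 0.721 CPM) and an adjusted p of 0.0499 (edgeR). The defining marker *Sox10* stood at 1.04 ± 0.753 and 1.12 ± 0.434 CPM and did not pass the test. *Pdgfra*, *Cspg4*, *Gpr17*, *Matn4* and *C1ql1* did not pass either. Their log2 fold changes were 0.44, 0.16, -0.77, -0.33 and -0.05 in this order. Markers of myelinating oligodendrocytes summed to 13.1 to 21.9 and 9.62 to 18.4 CPM, with *Mog*, *Mag*, *Mobp*, *Cldn11* and *Opalin* at 0 in some libraries and *Mbp* at 8.11 ± 1.12 and 5.14 ± 0.813 CPM (lower, adjusted p = 0.000973, edgeR).

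All 10 neuronal markers were detected, and their sum was 5770 to 6869 CPM in control and 5853 to 6975 CPM upon *Neuid* KD, led by *Map2* (2625 ± 180 and 2607 ± 255 CPM) and *Stmn2* (991 ± 51.4 and 941 ± 51.9 CPM, SD, n = 6 each), and 1 of 10 rose (*Camk2a*, named after its values were seen). Thalamic markers, relevant to *Tcf7l2* and *Lef1*, summed to 50.6 to 61.4 CPM in control and 44.6 to 48.6 CPM upon *Neuid* KD. This sum was lower without overlap. Of its leading genes, *Slc17a6* fell from 26.4 ± 3.19 to 20.9 ± 1.99 CPM (adjusted p = 0.0123, edgeR), while *Lhx9* had means of 23.6 ± 1.56 and 20.3 ± 2.21 CPM and did not pass. The others had means of 0.754 and 0.965 CPM (*Gbx2*), 1.31 and 0.838 CPM (*Tnnt1*) and 4.89 and 4.30 CPM (*Prkcd*) and did not pass either. The control and *Neuid* KD libraries of each single thalamic marker overlapped. Cajal-Retzius markers summed to 168 to 197 and 124 to 166 CPM, also without overlap. *Reln* (160 ± 13.7 and 135 ± 16.1 CPM) made up most of this sum, followed by *Ndnf* (16.0 ± 1.67 and 14.7 ± 1.32 CPM), and neither passed the test. *Trp73* (1.73 and 1.33 CPM), *Ebf3* (1.56 and 0.761 CPM), *Lhx5* (0.797 and 0.701 CPM) and *Lhx1* (0.730 and 0.755 CPM) did not pass either. Each single marker of this list overlapped between the groups. Whether either cell type changed in number was not tested.

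The remaining marker lists overlapped between the groups and were low except for dividing cells. Dividing-cell markers summed to 137 to 150 and 126 to 150 CPM, with *Mki67* at 75.3 ± 3.44 and 71.3 ± 5.30 CPM and *Top2a* at 50.7 ± 2.81 and 51.3 ± 3.71 CPM (SD, n = 6 each). Fibroblast, meningeal and mural markers were at 43.4 to 75.8 and 42.9 to 65.5 CPM, led by *Dcn* at 21.6 ± 1.24 and 20.9 ± 1.16 CPM and *Rgs5* at 8.89 ± 1.04 and 7.74 ± 1.45 CPM. Endothelial markers were at 6.94 to 24.2 and 7.02 to 23.5 CPM, led by *Kdr* at 7.40 ± 1.63 and 7.36 ± 1.33 CPM and *Pecam1* at 2.67 ± 2.16 and 1.37 ± 1.19 CPM, with *Cldn5*, *Tek*, *Cdh5* and *Emcn* at 0 in some libraries. Their sum was at least 12.4 CPM in libraries of high background and at most 8.85 CPM in those of low background. Microglial markers were at 6.57 to 11.8 and 5.81 to 11.5 CPM, led by *Aif1* at 4.48 ± 0.353 and 3.60 ± 0.799 CPM and *Csf1r* at 3.12 ± 1.12 and 2.40 ± 0.935 CPM, with the defining genes *P2ry12*, *Tmem119*, *Cx3cr1*, *C1qa*, *C1qb* and *Itgam* at 0 in some libraries. The microglial sum was at least 7.38 CPM in libraries of high background and at most 7.21 CPM in those of low background. The part of background reads in the endothelial and microglial sums was not tested. Choroid plexus and ependymal markers were at 4.77 to 13.6 and 3.92 to 15.3 CPM, led by *Ttr* at 2.67 ± 2.98 and 4.18 ± 3.201 CPM and *Foxj1* at 3.16 ± 0.449 and 2.56 ± 0.461 CPM, with *Ccdc153* and *Tmem212* at 0 in some libraries.

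The genes whose level followed *Tcf7l1* and *Tcf7l2* most closely were taken from the 10714 tested genes whose mean reached 5 CPM, by Pearson r of log2 CPM over the 12 libraries. For *Tcf7l1* these were *Lpp* (r = 0.966), *Gpc5* (0.965) and *Yap1* (0.964), and for *Tcf7l2* they were *Gli2* (0.974), *Prdm16* (0.969) and *Lpp* (0.969). Each of these 5 genes was itself higher upon *Neuid* KD, with log2 fold changes between 0.74 for *Yap1* and 1.20 for *Gpc5*, so that the difference between the groups enters r. With the group means subtracted, the closest genes were *Fndc9* (0.937), *B230216N24Rik* (0.921) and *Cald1* (0.904) for *Tcf7l1*, and *Creb5* (0.892), *Lrguk* (0.878) and *Htr4* (0.877) for *Tcf7l2*. The libraries share depth and background as well: with the group means subtracted, log2 background had r = 0.68 with *Tcf7l1* and 0.56 with *Tcf7l2*. These values describe the 12 libraries and carry no test.

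The calls of *Tcf7l1* and *Tcf7l2* were held under all 23 alternatives of the processing, which included other scalings, other tests, subsets of libraries and leaving out each library. The log2 fold change ranged from 1.11 to 1.52 for *Tcf7l1* and from 0.76 to 1.02 for *Tcf7l2*, with adjusted p-values up to 0.000235 and 0.0014.

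**Figure D5:**
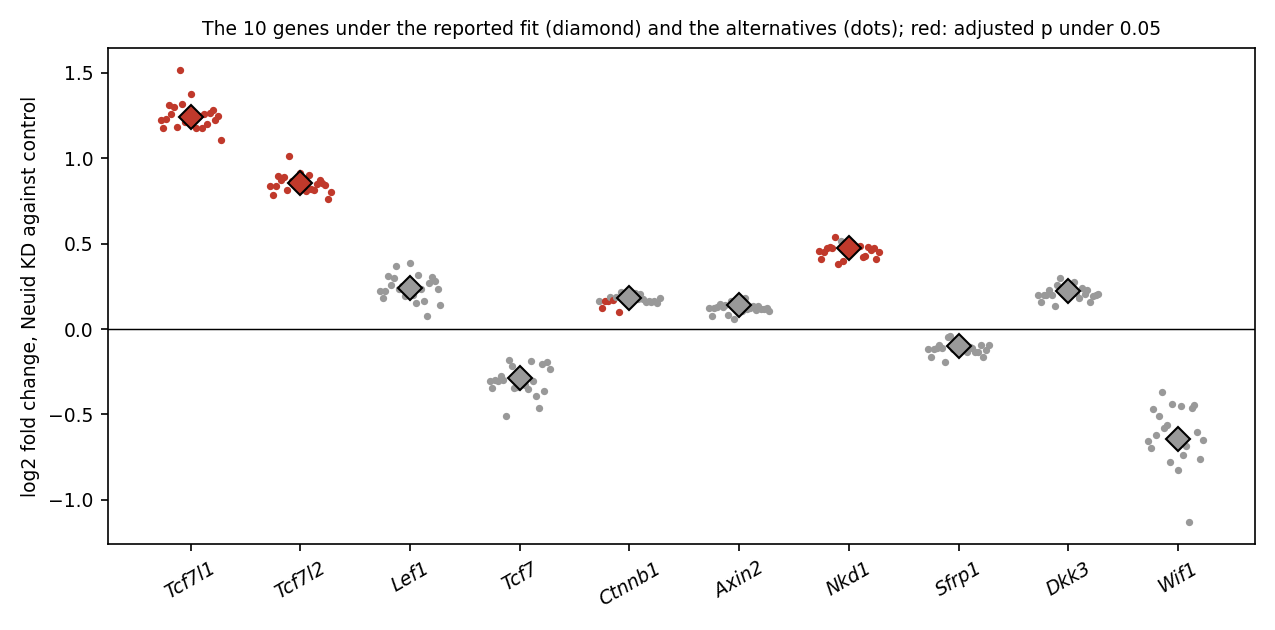
Log2 fold change (*Neuid* KD over control) of the 10 genes in the test as reported and under each alternative of the processing, with 1 column of points per gene, the reported value as a diamond and called values in red. The points of *Tcf7l1* stay between 1.11 and 1.52 and those of *Tcf7l2* between 0.76 and 1.02, while the points of *Wif1* spread from -1.13 to -0.37.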

How the data were processed

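Total RNA of primary mouse hippocampal neurons was sequenced in 12 libraries (SMARTer Stranded Total RNA-Seq, Pico Input), with 6 control and 6 *Neuid* KD libraries grouped by their labels. The authors trimmed reads with bcl2fastq, aligned them to mm10 with STAR (tools per the submitters' processing notes) and deposited raw read counts per Ensembl gene without normalization. Symbols, positions and exon lengths came from the GENCODE annotation of GRCm38, with a symbol for 55230 of 55471 genes.

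The filter (filterByExpr), TMM scaling and the quasi-likelihood test were those of edgeR 4.0.16 (R 4.3.3), with Benjamini-Hochberg adjustment over 19578 genes and a threshold of 0.05. CPM are counts scaled to library size, and log2 CPM used a prior count of 2. The scripts were tested on simulated data of 6 against 6 libraries. There, 55.4%, 60.0% and 72.1% of genes changed by a log2 fold of 0.5, 1.0 and 2.0 were recovered. A gene that did not pass the test may therefore still have changed. Alternatives were RLE and upper-quartile scaling, DESeq2 1.42.0, 1 RUVs factor, no filter, a background covariate, libraries of high or low background alone, GC and length offsets, thinning to the smallest library, a replicate block, a log2 threshold of 0.5 and leaving out each library. No pair of libraries of a group agreed within sampling noise (chi-square per degree of freedom at least 3.30).

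The genes, the pathway and marker lists and the measure of background were chosen with earlier results of these data known. Beyond the 10 genes, the text names pathway genes past the test and a log2 fold change of 0.5 (at most 6 per list), the 2 most abundant genes of each of 11 marker lists, the 3 genes most like *Tcf7l1* and *Tcf7l2* by each measure, and *Neuid*. Exceptions are stated, and 1 marker gene is not reported here.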

Additional observations from a re-analysis of the deposited data

Results flagged for a closer look

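Control replicate 1 stood apart from the rest of its group for *Tle4*, at 41.0 CPM against 47.3 to 48.9 CPM in the other control libraries, and its gap to the nearest of them was 0.793 of the whole range, above Dixon's critical value for 6 samples. Without this library the adjusted p of *Tle4* was 0.0505 (edgeR). It was found in 1 of 36 groups examined, where chance alone gives about 1 in 20.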

How the results depend on the processing

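Over 18 genes and up to 23 alternatives, 382 of 412 values kept their direction and their side of the threshold, 23 lost the call, 7 gained it and 0 reversed. All 7 gains were those of *Ctnnb1*. Among the 10 genes, 2 to 4 were called higher and 0 lower under each alternative. *Wif1* was not tested after thinning and had no adjusted p from DESeq2. Of the other Wnt genes, 7 were called higher and 1 lower as reported. The numbers were 12 and 2 with DESeq2, 14 and 3 with a RUVs factor, 15 and 3 with the background covariate, 2 and 0 with GC and length offsets, and 3 and 0 at a log2 threshold of 0.5. The lower count was 4 with upper-quartile scaling, 0 without the filter and 0 in libraries of high background. Leaving out 1 library gave 6 to 10 higher and 1 to 2 lower, where the 10 and 2 came without *Neuid* KD replicate 1. Over all genes, 1235 were called higher and 473 lower as reported, 291 and 62 with GC and length offsets, 1049 and 1259 with upper-quartile scaling, 1496 and 1004 with DESeq2, 1757 and 987 with a RUVs factor, 1776 and 987 with the background covariate, 711 and 229 without the filter, 651 and 205 in libraries of high and 1110 and 799 in libraries of low background. Where the alternative's own construction (fewer libraries, more genes tested) does not give it, the cause was not tested. The median of all genes moved between -0.03 and -0.09 under the scalings.

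Replicate numbers did not pair the libraries (same-number correlations from -0.637 to 0.774, and 2 of 6 control libraries correlated best with the *Neuid* KD library of their own number). With the replicate block, 4 of the 10 genes were higher, *Ctnnb1* among them (adjusted p = 0.023, edgeR), as were 10 of the other Wnt genes, and 2 were lower. Depth limits *Wif1*, with 3 to 28 reads per library, and *Tcf7*, with 26 to 77.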
